A study of Mus musculus with 36 samples.

Results

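The cytosolic ribosome of the mouse is built from ribosomal RNA and a set of ribosomal proteins, of which those named Rpl belong to the large and those named Rps to the small subunit. The genes described here were chosen by name: every protein-coding row of the count table called Rpl or Rps with a number and an optional a, l, x or y suffix, together with Rplp0, Rplp1, Rplp2 and Rpsa. This gave 83 of 55358 genes, 51 of the large and 32 of the small subunit. The rule read names only, but the set was picked with calcium and time effects in these data known. Levels and fold changes in those comparisons are therefore given as a description, with no p-value for a member. Where members called are counted in them, or in differences between them, nothing is read from the count about the members. The share of all genes called stands beside most of these counts, but not beside those with single libraries left out. The study grew murine keratinocytes from newborn pups as WT (Pkp4+/+), PKP4-KO (Pkp4-/-, from mice with an exon of Pkp4 deleted and backcrossed to C57BL/6J) and Rescue cells. Rescue cells are PKP4-KO keratinocytes that carry human PKP4 with an EGFP tag after lentiviral transfer and puromycin selection, so they differ from WT cells by the virus and the selection too. Every genotype was kept for 24 h or 72 h in low calcium medium (LCM) or in high calcium medium (HCM), to which CaCl2 had been added. The sample labels write LD for 24 h and HD for 72 h, and GFP in the titles of the libraries called Rescue here, whose genotype they give as a knockout with GFP-PKP4. There were 12 groups, and 3 libraries were made of each. The labels do not say whether libraries of a group came from separate cultures, so that p-values measure the spread between these libraries, which may be technical.

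Ribosomal proteins are made in near-equal numbers, and their mRNAs are among the most abundant of a growing cell. Most of these mRNAs begin with a run of pyrimidines at the cap, the 5′ terminal oligopyrimidine (TOP) motif, through which mTOR and the RNA-binding protein Larp1 control their translation and stability. In epidermis, raised calcium starts the differentiation of keratinocytes, during which proliferation ends. Ribosomal protein mRNAs are also short, which matters below: the coding length of the members lay between 138 and 1257 nt with a median of 468 nt, against 1191 nt over all protein-coding genes.

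Sequences around the start of transcription are shown for 7 members with a pyrimidine run and for Rpl7l1, a member without one whose course over the groups was least like that of the others. Each is a window of 30 bases of RefSeq on GRCm38.p6, another build than that of the counts, read 5′ to 3′ on the strand of the gene with the annotated start in the middle, and capitals mark the run, a C with at least 4 further C or T bases that begins at most 5 bases from the start.
Rpl27a: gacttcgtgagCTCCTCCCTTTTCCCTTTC
Rpl15: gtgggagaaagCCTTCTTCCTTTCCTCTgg
Rpl35: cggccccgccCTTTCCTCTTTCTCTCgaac
Rps6: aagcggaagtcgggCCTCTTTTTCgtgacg
Rplp2: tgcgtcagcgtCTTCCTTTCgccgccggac
Rps27: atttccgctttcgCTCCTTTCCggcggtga
Rpl22l1: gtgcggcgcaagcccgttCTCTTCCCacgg
Rpl7l1: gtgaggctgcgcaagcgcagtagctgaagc
They lie at chr7:109519180-109519209 (+) for Rpl27a, chr14:18270972-18271001 (-) for Rpl15, chr2:39005117-39005146 (-) for Rpl35, chr4:86857353-86857382 (-) for Rps6, chr7:141447636-141447665 (+) for Rplp2, chr3:90213634-90213663 (-) for Rps27, chr3:28805493-28805522 (+) for Rpl22l1 and chr17:46782642-46782671 (-) for Rpl7l1. Of the 83 members, 63 were matched by symbol in the RefSeq table, and 29 of those (46.0%) held such a run, with a median length of 8 bases. Among 26962 other genes, 21.1% held one, with a median of 6 bases. An annotated start can lie some bases from the true cap, so a window without a run says only that these letters were not found there.

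The counts summed to between 13602728 and 22467187 per library. Levels are given as CPM, the counts of a gene scaled to a common library total, after scaling with TMM factors, which set libraries against each other by the bulk of their genes. Pkp4, the targeted gene, lay at 33.4 to 76.3 CPM in the 12 WT libraries, at 6.39 to 14.1 in the 12 PKP4-KO and at 6.52 to 11.9 in the 12 Rescue libraries, where the transferred gene is the human one and the row the mouse gene. The keratinocyte markers Krt5, Krt14, Trp63, Itga6, Itgb4, Cdh1, Dsg3 and Col17a1 summed to 23405 to 70205 CPM. Fibroblast markers summed to at most 11.4 CPM, melanocyte markers to at most 6.51, endothelial markers to at most 5.15 and immune markers to at most 0.635, with Tyr and Cd207 at 0 in every library.

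Before the genotypes and media are compared, 10 of the 36 libraries have to be described, because they stood apart in short genes. They were picked out by the widest gap in Sec61g, a short gene that is no member, which lay at 165 to 1217 CPM in these 10 and at 11.2 to 56.1 CPM in the other 26. Ndufb1 divided the libraries in the same way, at 99.6 to 921 and 4.69 to 34.1 CPM. The 10 are replicate 2 of WT 24 h HCM, replicate 3 of WT 72 h HCM, replicate 1 of PKP4-KO 24 h LCM, replicate 3 of PKP4-KO 24 h HCM, replicate 2 of PKP4-KO 72 h LCM, replicate 3 of Rescue 24 h LCM, replicate 2 of Rescue 72 h LCM and all 3 replicates of PKP4-KO 72 h HCM. In 7 groups 1 of 3 libraries was thus of this kind, in PKP4-KO 72 h HCM every one, and in the other groups none. Both genes were chosen after their values were seen. Of all 15114 genes tested, 518 (3.43%) lay higher in each of the 10 than in any of the 26 and 50 (0.331%) lower, and 26 of the 80 tested members were among the former. Their totals lay between 13794211 and 16283183 counts and those of the other 26 between 13602728 and 22467187. In each of the 7 groups with 1 such library, it had the lowest total of the 3. The part of depth in the levels of short genes was not tested.

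**Figure D1:**
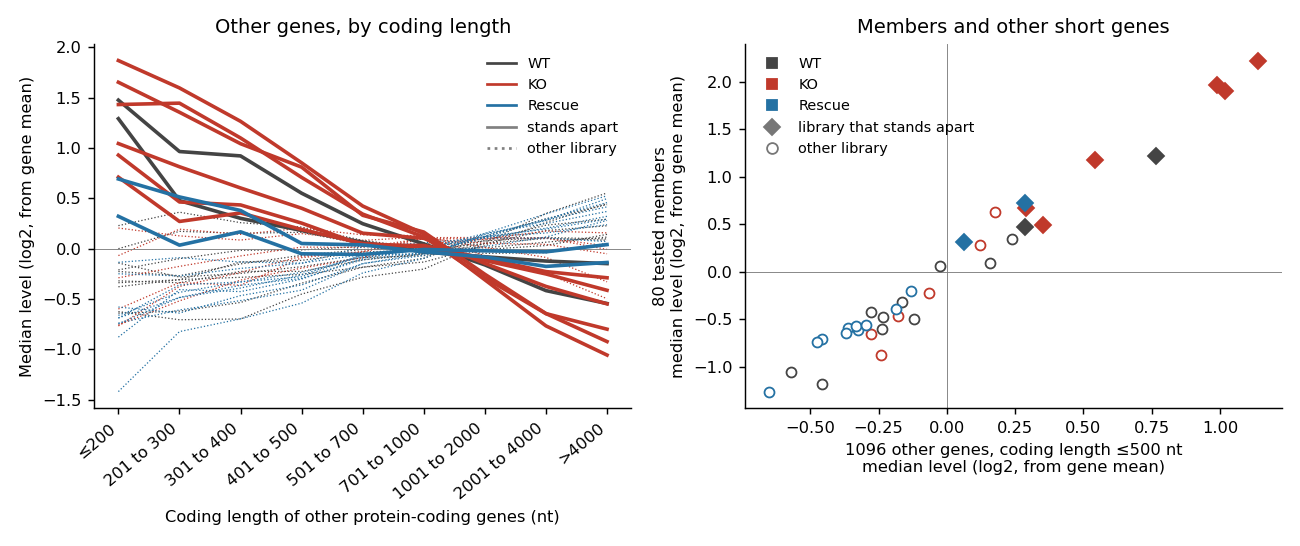
Left, the median level of other protein-coding genes in 9 classes of coding length, as log2 difference from each gene's mean over the 36 libraries, with a line per library. Right, the median level of the 80 tested members against that of 1096 other genes with a coding length of at most 500 nt, with a point per library; the 10 libraries that stand apart are drawn as full lines and filled diamonds and lie highest in the shortest genes.

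The level of other genes depended on their length in libraries of both kinds. For 40 other genes with a coding length of at most 200 nt, the median log2 level lay at 0.32 to 1.87 in the 10 libraries and at -1.42 to 0.23 in the 26, whereas for 877 genes longer than 4000 nt it lay at -1.06 to 0.04 and at -0.50 to 0.55. Single libraries varied within each kind: Rescue 72 h LCM replicate 1, which did not stand apart, went from -1.42 for the shortest class to 0.53 for the longest, and Rescue 24 h LCM replicate 3, which did, from 0.32 to 0.04. The members went with the other short genes. Over the 36 libraries, the median levels of the members and of the 1096 other short genes had a Pearson correlation of 0.98 and lay on the same side of their means in 35 libraries, given here as a description since both share library and depth. What made these libraries differ was not tested. In PKP4-KO 72 h HCM, the kind of library and the group cannot be told apart from its own libraries, and its comparisons are given in 3 ways: from the group means alone, with the other 7 libraries that stood apart left out, and with a term for the 10 libraries, which is estimated within the 7 groups that hold both kinds. The term takes the same shift for PKP4-KO 72 h HCM, which was not tested. For 198 other genes over 200 and up to 300 nt, the median log2 level was 1.35 to 1.60 in its 3 libraries. In the other 7 it was 0.04 to 0.96.

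**Figure D2:**
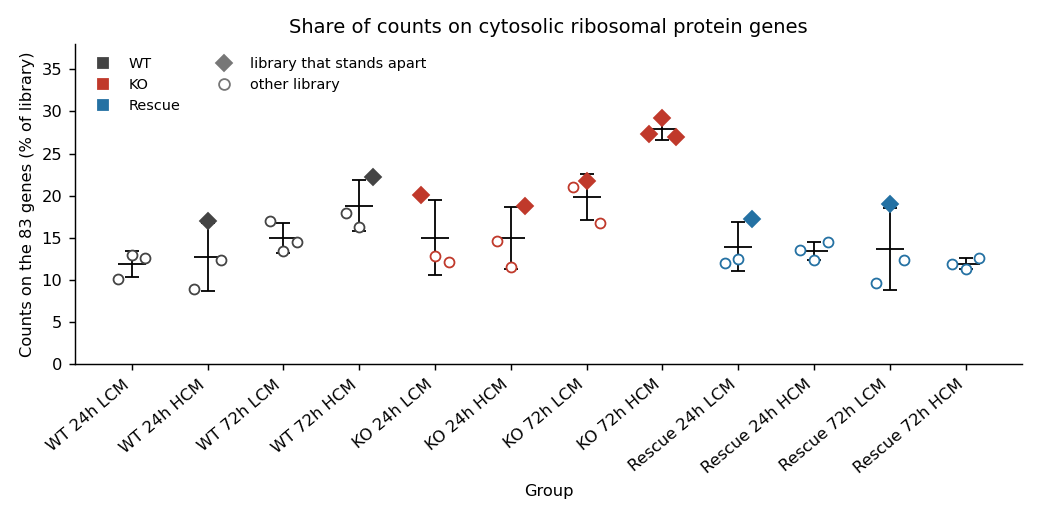
Percent of all counts of a library that fell on the 83 genes, with a point per library, the mean of each group as a bar and its SD as the error bar (n = 3). The 3 PKP4-KO 72 h HCM libraries sit at 27.0 to 29.3%, above all others, and in each of the 7 groups with 1 library that stands apart that library is the highest.

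Between 8.97% and 29.3% of the counts of a library fell on the members. The share was 27.3, 29.3 and 27.0% in PKP4-KO 72 h HCM, and the next library, WT 72 h HCM replicate 3, had 22.2%. In WT cells the mean was 11.9 ± 1.51% (SD, n = 3) at 24 h LCM and 18.8 ± 3.04% at 72 h HCM, while in Rescue cells it lay between 11.9 ± 0.666% at 72 h HCM and 13.9 ± 2.89% at 24 h LCM. Libraries of the same group differed by up to 1.98-fold, in Rescue 72 h LCM. Without the libraries that stood apart, the highest share was 21.0% in PKP4-KO 72 h LCM replicate 1. Among the 10 that stood apart, the 3 PKP4-KO 72 h HCM libraries still lay above the other 7, which had 17.0 to 22.2%.

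The members with the highest level per length, as mean CPM per kb of exons over the 36 libraries, were Rplp1 with 9974 and Rplp0 with 5506, both of the stalk that recruits elongation factors, followed by Rps15 with 4170. The lowest tested were Rps10 with 1.50, Rpl24 with 4.21 and Rpl7l1 with 42.5. The exon length used is that of the file, which joins all transcripts of a gene. For Rps10 and Rpl24, structural proteins of either subunit, such levels are far below those of their partners. Rps10 had 2093 reads in all libraries together and its 4 pseudogene rows, the copies without a function of their own, 288645, that is 99.3% of both. Rpl24 had 1745 reads, no pseudogene row of its name, and lay at 8.11 to 28.9 CPM in the 10 libraries that stood apart and at 0 to 0.652 in the other 26. Whether reads on near-identical copies were shared out, dropped or assigned to 1 copy is not given in the sources used here, so the levels of members with such copies are uncertain. For 62 members pseudogene rows were found, and in 17 of them these held over 10% of the reads of both, led by Rps10, Rpl17 with 64.8%, Rpl21 with 57.7% and Rps12 with 50.3%. For Rps27a, which encodes ubiquitin fused to a small subunit protein, the libraries of WT 72 h LCM had 1759.7, 375 and 1306 CPM and its pseudogene rows 55.3, 352 and 53.0 CPM: the libraries that were high in the gene were low in the copies.

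Of the 83 members 80 had enough counts to be tested. The other 3 are Rpl39l and Rpl10l, each without a read, and Rpl3l, the form of Rpl3 found in muscle, with 21 reads in all and at most 5 in a library. Per library, 3 counts correspond to 0.134 to 0.221 CPM before TMM scaling. Over the 12 groups, 78 of the 80 tested members had their highest mean log2 level in PKP4-KO 72 h HCM, the exceptions being Rpl5 in WT 72 h HCM and Rpl7l1 in PKP4-KO 24 h HCM. The lowest group was Rescue 72 h HCM for 36 and WT 24 h LCM for 33. The members kept together: the median Pearson correlation of a member's 12 group levels with the median of all members was 0.97, it was over 0.9 for 69 members, and it was below 0.5 for Rpl7l1 only, with 0.18. The largest departures from the common course were those of Rpl24, Rpl7l1, Rpl17, Rps28 and Rpl39.

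**Figure D3:**
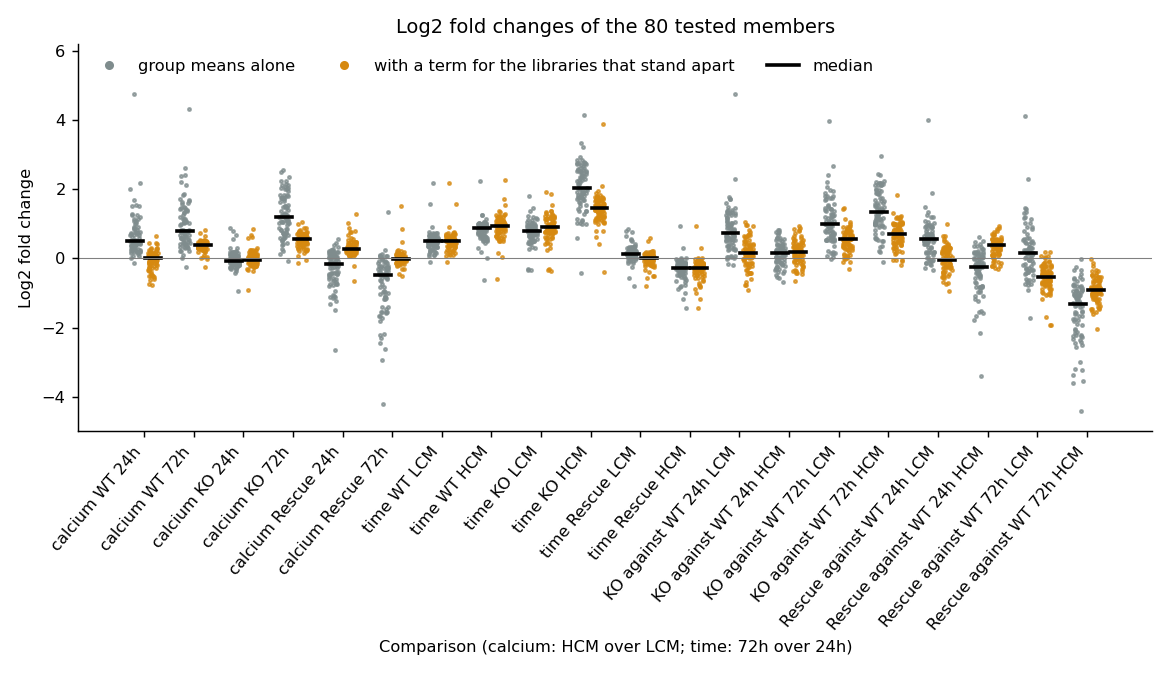
Log2 fold changes of the 80 tested members in the 12 calcium and time comparisons within a genotype and the 8 comparisons with WT. Grey points come from the group means alone, orange points from the fit with a term for the libraries that stand apart, and black bars are medians. In WT and PKP4-KO nearly all points of the time comparisons lie above 0 in both fits. For time in Rescue, 4 points lie above 0 in HCM in either fit, and in LCM 70 grey and 40 orange points do.

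Culture time within a genotype was the first comparison. In HCM, the median member was higher at 72 h than at 24 h by 0.88 on the log2 scale in WT and by 2.04 in PKP4-KO, and among Rescue cells it was lower, at -0.29. In LCM, the medians were 0.51 for WT, 0.79 for PKP4-KO and 0.13 for Rescue, and medians over all tested genes lay between -0.09 and 0.01 in these 6 comparisons. In PKP4-KO HCM, 71 of the 80 were called higher (edgeR, adjusted p below 0.05), where 24.3% of all genes were, and 1 lower, and all 3 libraries at 72 h lay above all 3 at 24 h for 78 members against 29.3% of all genes. In WT HCM 21 were called higher against 9.16% of all genes, in PKP4-KO LCM 20 against 12.4%, and in WT LCM 8 against 5.29%. Of the 1096 other short genes, 596 were called higher in PKP4-KO HCM, 225 in WT HCM, 230 in PKP4-KO LCM and 68 in WT LCM. In Rescue cells 0 members were called higher in LCM or HCM, against 6.84% and 13.6% of all genes and 105 and 136 of the short genes. In Rescue LCM, 0 members had an unadjusted p under 0.05 and DESeq2 called 0, while in Rescue HCM 1 was called lower, Rpl7l1. In either direction, 9.96% of all genes were called with time in WT LCM (4.66% lower), 17.9% in WT HCM, 55.8% in PKP4-KO HCM and 9.81% in Rescue LCM (2.96% lower).

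With the term for the libraries that stood apart, many more members were called in WT and in PKP4-KO LCM. The libraries were divided by their own counts. SEs, p-values and counts with the term take that division as given and are no independent support. In WT HCM 75 were called higher with a median of 0.94, against 16.9% of all genes, and in PKP4-KO LCM 74 with a median of 0.89, against 19.4%. In WT LCM it was 29 with 0.51, against 10.4%. Leaving out the 7 libraries gave medians of 1.01, 1.12 and 0.51 in the same order. In PKP4-KO HCM the term lowered the median to 1.45 with 76 called higher, against 25% of all genes. Without the 7 libraries, which sets 3 libraries that stood apart against 2 that did not, the median was 2.52, with 79 called higher against 30.1%. In Rescue HCM the median with the term was -0.29. With single libraries left out of the group means alone, WT HCM had 42 called without 24 h replicate 2, 5 without 24 h replicate 1, 13 without 72 h replicate 1 and 8 without 72 h replicate 3, where it had 22 in all. PKP4-KO LCM had 39 without 24 h replicate 1, 12 without 24 h replicate 3 and 10 without 72 h replicate 1 where it had 21, and WT LCM had 0 without 24 h replicate 1 or 72 h replicate 1 and 2 without 72 h replicate 3 where it had 8.

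The stalk protein gene Rplp0 shows the time course in a long member. In WT HCM its 24 h libraries had 7249, 8619 and 9598 CPM and its 72 h libraries 11819, 11695 and 13244 CPM. In PKP4-KO HCM they had 7979.5, 7364 and 6634 CPM and 18197, 17965 and 17766 CPM. The 2 times did not overlap in either genotype, and the log2 fold changes were 0.53 ± 0.15 (SE) and 1.29 ± 0.15. In Rescue HCM, Rplp0 had 8532, 7817 and 7039 CPM at 24 h and 7059.8, 6754 and 7241 CPM at 72 h, which overlapped. Its partners of the stalk, Rplp1 and Rplp2, had log2 fold changes of 2.05 ± 0.66 and 1.77 ± 0.36 in PKP4-KO HCM, and 1.17 ± 0.22 and 1.34 ± 0.25 with the term, close to the 1.24 ± 0.15 of Rplp0.

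Rps6, the small subunit protein phosphorylated by S6 kinases, had 2450.0, 3906 and 3601 CPM at 24 h and 5304, 4983 and 6394 CPM at 72 h in WT HCM. In PKP4-KO HCM it had 3921, 2995 and 3391 and then 12051, 13416 and 11511 CPM, with a log2 fold change of 1.84 ± 0.21, and in Rescue HCM 2820.5, 2485 and 2420.4 and then 2637, 2447 and 2693 CPM. Times were apart in WT and PKP4-KO and overlapped in Rescue. Rpl5 and Rpl11, which bind 5S rRNA and can bind Mdm2 when they are free of the ribosome, had log2 fold changes with time of 0.79 ± 0.16 and 0.91 ± 0.38 in WT HCM and of 1.12 ± 0.16 and 1.77 ± 0.39 in PKP4-KO HCM. Rps19, known for its mutations in Diamond-Blackfan anaemia, had 1.01 ± 0.34 and 2.14 ± 0.35, and Rpl13a, the subject of a translational silencing pathway, 0.89 ± 0.30 and 1.68 ± 0.30. Rpsa, the laminin receptor precursor that is part of the small subunit, had 0.52 ± 0.19 and 1.04 ± 0.19, and Rpl10, which joins the large subunit late, 0.90 ± 0.22 and 1.80 ± 0.22.

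Short members had larger fold changes than Rplp0 from the group means alone, with larger SEs. Rpl39, the protein of the exit tunnel, had 231, 182 and 3238 CPM in PKP4-KO 24 h HCM and 5582, 8961 and 6724 CPM at 72 h. The third 24 h library, which stood apart, lay far above its replicates and below the 72 h libraries. The log2 fold change of Rpl39 was 2.54 ± 1.32 from the group means alone and 1.37 ± 0.28 with the term, which lowered its SE. Rpl39 lay higher in each of the 10 libraries than in any other, so the division itself narrows its spread. Rps28 had 190.2, 125 and 1621 CPM in WT 72 h HCM, where the third library stood apart, and 2863, 4217 and 3274 CPM in PKP4-KO 72 h HCM. Its log2 fold change with time in PKP4-KO HCM was 2.75 ± 1.43 and with the term 1.47 ± 0.32. Rpl38 went from 3.21 ± 1.29 to 1.88 ± 0.34, and Rpl41, the shortest member, from 2.47 ± 0.93 to 1.37 ± 0.32. Rpl17 had the largest log2 fold change, 4.15 ± 0.79, with 355, 85.0 and 191 CPM and then 3004, 4547 and 3649 CPM, and is one of the members whose pseudogene rows hold more reads than the gene. Rps27 followed with 3.34 ± 1.03, and Rps10 with 0.60 ± 0.27 and Rpl7l1 were lowest.

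**Figure D4:**
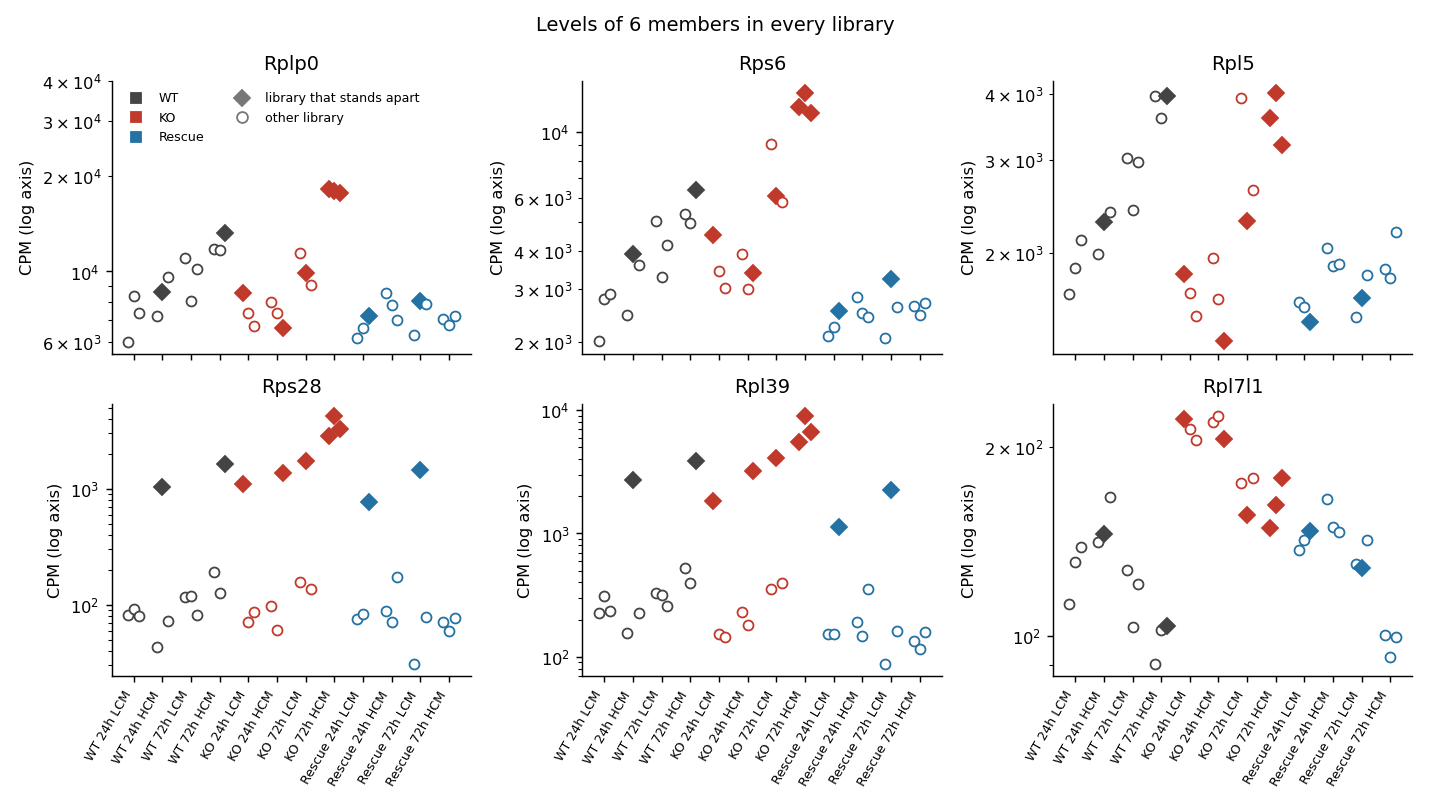
CPM of 6 members in all 36 libraries on a log axis, with a point per library and filled diamonds for the 10 libraries that stand apart. Within the groups that hold both kinds of library, Rplp0, Rps6 and Rpl5 vary less between the kinds than Rps28 and Rpl39. Rplp0 and Rps6 are highest in PKP4-KO 72 h HCM, where every library stands apart. Rps28 and Rpl39 lie higher in each of the 10 than in any other library, and Rpl7l1 is lower at 72 h than at 24 h in HCM in the 3 genotypes.

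Rpl7l1 took another course than the other members. It encodes a protein like Rpl7 that is found in ribosome precursors. In WT HCM it had 141, 145 and 166 CPM at 24 h and 90.3, 102 and 104 CPM at 72 h, in PKP4-KO HCM 219, 223 and 206 and then 148, 161 and 178 CPM, and in Rescue HCM 165, 149 and 146 and then 100.5, 92.8 and 99.7 CPM. At 72 h all libraries lay below those at 24 h in the 3 genotypes. Its log2 fold changes with time were -0.61 ± 0.10, -0.41 ± 0.10 and -0.65 ± 0.10, and with the term -0.61 ± 0.10, -0.39 ± 0.11 and -0.65 ± 0.10. Rpl7 itself had 0.49 ± 0.16, 1.13 ± 0.16 and -0.29 ± 0.16 in the same comparisons.

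Calcium within a genotype was the second comparison, HCM against LCM. The median member had a log2 fold change of 0.50 at 24 h and 0.80 at 72 h in WT, of -0.08 and 1.21 in PKP4-KO, and of -0.16 and -0.48 in Rescue cells. With the term these became 0.00 and 0.39, -0.04 and 0.55, and 0.26 and -0.02. In PKP4-KO at 72 h, 32 members were called higher, where 12.9% of all genes were, and 0 lower. Of the 1096 other short genes, 379 were called higher there and 248 in WT at 72 h. With the term 25 members were called higher in PKP4-KO at 72 h against 14.1% of all genes. Without the 7 libraries, where HCM libraries that stood apart are set against LCM libraries that did not, the median was 1.36 and 66 were called higher against 22.4%. From the group means alone the count was 53 without LCM replicate 2, which stood apart, 7 without LCM replicate 3 and 13 without HCM replicate 2. In WT at 72 h 3 were called higher against 10.6% of all genes. It was 0 without HCM replicate 1 or 3 or LCM replicate 1 or 3, and 1 without LCM replicate 2, and with the term it was 6 against 13.8%. At 24 h, edgeR called 0 members in WT, with 3 at an unadjusted p under 0.05 and 2 called higher by DESeq2, 0 in PKP4-KO with 0 and 0, and 0 in Rescue with 2 and 1, where 14.2%, 2.83% and 12% of all genes were called. By direction, these were 7.69% higher and 6.48% lower for WT, 1.44% and 1.4% for PKP4-KO, and 6% and 5.96% for Rescue. With the term 6 members were called higher in Rescue at 24 h against 9.92% of all genes. In Rescue at 72 h only Rpl7l1 was called, lower, where 12% of all genes were.

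The term changed the value of the short Rpl38 more than that of the longer Rplp0. In PKP4-KO at 72 h, Rpl38 had 251, 1332 and 185 CPM in LCM and 2876, 4215 and 2889 CPM in HCM. The second LCM library, which stood apart, lay between its replicates and the HCM libraries. The log2 fold change with calcium was 2.50 ± 1.25 from the group means alone and 0.79 ± 0.34 with the term. For Rplp0 it was 0.83 ± 0.15 and 0.77 ± 0.15, with 11450.0, 9896 and 9077 CPM in LCM below 18197, 17965 and 17766 CPM in HCM. Rps2, a core protein of the small subunit, had 0.59 ± 0.19 and 0.77 ± 0.17, and Rps6 0.81 ± 0.21 and 0.65 ± 0.20. The highest and lowest members of the calcium comparisons were mostly of low counts or short: Rpl24 was highest in WT at 24 h with 4.76 ± 2.35, in WT at 72 h with 4.31 ± 2.21 and in PKP4-KO at 72 h with 2.55 ± 1.79, and lowest in Rescue at 24 h with -2.66 ± 2.07 and at 72 h with -4.21 ± 2.22. In PKP4-KO at 24 h Rpl22l1 was highest with 0.87 ± 0.89 and Rpl17 lowest with -0.94 ± 0.70, neither beyond the spread of the libraries.

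The markers of differentiating keratinocytes Krt1, Krt10, Krtdap, Ivl, Lor and Sbsn were, as a sum, highest in the group that was highest in the members. They summed to 23067 to 24858 CPM in PKP4-KO 72 h HCM, to 4151 to 11147 in WT 72 h HCM, to 3024 to 6664 in PKP4-KO 72 h LCM, to 3284 to 3729 in Rescue 72 h HCM and to 626 to 5118 in the other 8 groups. The sums weigh the markers unequally: the highest level in a library was 14630 CPM for Krtdap, 4702 for Krt10, 3839 for Krt1, 3329 for Sbsn, 249 for Lor and 154 for Ivl. Every PKP4-KO 72 h HCM library stood apart, and the part of the kind of library in these sums was not tested. Nor was the part of these markers in the levels of the members. Such bulk libraries give shares of RNA, so that a change of RNA per cell and of the cells' number or kind cannot be told apart.

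PKP4-KO cells were compared with WT cells in the same medium at the same time. The choice of the members names calcium and time effects and not these comparisons, which share libraries with them. At 72 h all members called were higher in PKP4-KO. In HCM 52 of 80 were called higher and 0 lower, with a median log2 fold change of 1.36, where 21.9% of all genes were called higher and 29.9% lower, and in LCM 22 higher and 0 lower with 1.0, against 21.3%. Of the 1096 other short genes, 419 were called higher in HCM, with a median of 0.59. In LCM 328 of them were, with a median of 0.47. With the term, the counts of members were 48 higher in HCM against 23.7% of all genes, with a median of 0.71, and 40 in LCM against 25.6%, with 0.55, and 0 lower in both. Without the 7 libraries it was 45 in LCM, with a median of 0.66. In HCM it was then 72, with a median of 1.78, against 30.5% of all genes, where PKP4-KO libraries that stood apart were set against WT libraries that did not. From the group means alone, the count in HCM was 27 without WT replicate 2 and 29 without WT replicate 1, and in LCM 10 without WT replicate 2, 13 without WT replicate 3 or PKP4-KO replicate 1 and 14 without PKP4-KO replicate 2.

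Rpl22, a protein of the large subunit with a role in lymphocyte development, had the largest log2 fold change among the members called at 72 h. It had 485, 310.4 and 338 CPM in WT 72 h LCM and 1385, 2906 and 962 CPM in PKP4-KO 72 h LCM, with 2.21 ± 0.81 (edgeR, adjusted p = 0.027). In 72 h HCM it had 526, 449 and 1739 and 6285, 8017 and 6675 CPM, with 2.95 ± 0.83 (edgeR, adjusted p = 0.0041). Neither pair overlapped. With the term the values were 1.42 ± 0.27 and 1.84 ± 0.30 (edgeR, adjusted p = 5.8e-05 and 4.2e-06). The p-values with the term take the division of the libraries, drawn from the same counts, as given.

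Rpl13a had 159, 101 and 108 CPM in WT 72 h LCM and 516, 319 and 259 CPM in PKP4-KO 72 h LCM, without overlap, with a log2 fold change of 1.57 ± 0.30 (edgeR, adjusted p = 1.0e-04). It was also higher at 24 h LCM, with 1.14 ± 0.30 (edgeR, adjusted p = 0.0029), at 24 h HCM, with 0.81 ± 0.30 (edgeR, adjusted p = 0.027), and at 72 h HCM, with 1.61 ± 0.30 (edgeR, adjusted p = 6.7e-05). Rpl7l1 was higher in PKP4-KO too, with 0.74 ± 0.10 at 24 h LCM and 0.72 ± 0.10 at 72 h HCM (edgeR, adjusted p = 1.4e-06 and 2.0e-06). All PKP4-KO libraries lay above all WT libraries for Rpl7l1, in both media and at both times.

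Other members had small differences or did not pass the test. Rplp0 had 0.05 ± 0.15 at 72 h LCM (edgeR, adjusted p = 0.79) and 0.55 ± 0.15 at 72 h HCM, the second lowest of the called members (edgeR, adjusted p = 0.0031). Rps4x, encoded on the X chromosome, was the lowest called at 72 h HCM with 0.51 ± 0.17 (edgeR, adjusted p = 0.016), and Rps27 the second highest with 2.44 ± 0.99 (edgeR, adjusted p = 0.041). At 72 h LCM Rps2 had 0.50 ± 0.19 (edgeR, adjusted p = 0.031). Rpl5 had -0.09 ± 0.16 at 72 h HCM (edgeR, adjusted p = 0.64), with 3958, 3604 and 3963 CPM in WT and 3592, 4002 and 3197 CPM in PKP4-KO, whereas its partner Rpl11 had 1.45 ± 0.39 (edgeR, adjusted p = 0.0027), with 1658, 1423 and 2621 and 5093, 5835 and 4657 CPM. Rpl11 did not overlap between the genotypes and Rpl5 did. With the term the same values were -0.03 ± 0.16 for Rpl5 and 0.96 ± 0.27 for Rpl11 (edgeR, adjusted p = 0.89 and 0.0034).

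The same comparison was made at 24 h. In LCM 12 were called higher and 0 lower with a median of 0.74, against 19.7% of all genes called higher and 40.2% in either direction. In HCM 6 were called higher and 1 lower with a median of 0.16, against 20.7% of all genes called higher and 22.2% called lower. These shares of the members lay below those of all genes. With the term, 13 were higher and 4 lower in LCM with a median of 0.16, against 23.8% and 25.2%, and 14 and 1 in HCM, against 26.3% and 27%. Rpl11 was among those called in LCM with 1.17 ± 0.39 (edgeR, adjusted p = 0.017), and Rps6 had the smallest log2 fold change of them, 0.52 ± 0.21 (edgeR, adjusted p = 0.047). Rpl5 was the member called lower in HCM, with -0.43 ± 0.16 (edgeR, adjusted p = 0.034). The 12 in LCM became 7 without WT replicate 1 or PKP4-KO replicate 1, and the 7 in HCM became 3 or 4 without WT replicate 1 or 3 or any PKP4-KO replicate.

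Rescue cells were compared with WT cells in the same way. At 72 h HCM 52 members were called lower in Rescue and 0 higher, with a median of -1.30, where 16.7% of all genes were called lower, and all Rescue libraries lay below all WT libraries for 75 members against 24.3% of all genes. Of the 1096 other short genes, 566 were called, 70 of them higher, with a median of -0.74. With the term 67 members were called lower with a median of -0.90, against 21% of all genes, and without the 7 libraries the median was -0.95. From the group means alone the 52 became 16 without WT replicate 3, which stood apart, 22, 19 and 31 without Rescue replicate 1, 2 and 3. At 72 h LCM 8 were called lower with a median of 0.15, against 14.6% of all genes. Without the 7 libraries it was 48 with a median of -0.70 against 19.1%, and with the term 36 with -0.52 against 20.7%, so that the direction of the median turned when the libraries that stood apart were allowed for. The 8 became 3 without WT replicate 1 or Rescue replicate 1 and 5 without WT replicate 3 or Rescue replicate 3.

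Rplp0 had 7059.8, 6754 and 7241 CPM in Rescue 72 h HCM and 11819, 11695 and 13244 CPM in WT, with -0.80 ± 0.15 (edgeR, adjusted p = 1.4e-04). Rps6 had 2637, 2447 and 2693 and 5304, 4983 and 6394 CPM, with -1.10 ± 0.21 (edgeR, adjusted p = 1.7e-04). Rpl5 had 1871, 1797 and 2192 and 3958, 3604 and 3963 CPM, with -0.98 ± 0.16 (edgeR, adjusted p = 3.3e-05). None of the 3 overlapped between the genotypes. Rpl21 and Rpl39 had the largest differences of those called, -3.61 ± 1.23 and -3.56 ± 1.38 (edgeR, adjusted p = 0.023 and 0.044), and -2.04 ± 0.46 and -1.61 ± 0.27 with the term, and Rpl7 and Rpl3, a protein near the peptidyl transferase centre, the smallest, -0.57 ± 0.16 and -0.61 ± 0.16 (edgeR, adjusted p = 0.0063 and 0.0039). At 72 h LCM Rpl5 and Rps4x were lowest with -0.76 ± 0.16 and -0.73 ± 0.17 (edgeR, adjusted p = 5.4e-04 and 0.0016). Rpsa had -0.35 ± 0.19 at 72 h HCM (edgeR, adjusted p = 0.15) and Rpl7l1 -0.02 ± 0.10 (edgeR, adjusted p = 0.91).

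At 24 h, 2 members were called higher in Rescue than in WT in LCM, Rpl13a and Rpl8, against 13.5% of all genes, and 1 in HCM, Rps2, against 11.8%. Their log2 fold changes were 0.80 ± 0.30, 0.72 ± 0.27 and 0.63 ± 0.19 (edgeR, adjusted p = 0.048, 0.049 and 0.014). Rpl13a and Rpl8 were each lost when 1 of several libraries was left out: the count in LCM was 0 without WT replicate 1 or 2 or Rescue replicate 2 or 3, and 1 without WT replicate 3 or Rescue replicate 1, and in HCM it was 0 without WT replicate 1 or 2 or Rescue replicate 1. In HCM the median was -0.24 from the group means alone and 0.38 with the term, where 11 members were called higher against 16.8% of all genes. In LCM the term gave a median of -0.03, with 4 called higher and 5 lower, against 18.1% and 17%.

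Whether effects differed between genotypes was read from the difference of 2 effects in the same fit. The time effect in HCM was called larger in PKP4-KO than in WT for 8 members and smaller for 0. Of all genes 10.8% were called larger, so that the share of members called was no higher. The difference lay above 0 for all 80 members, with a median of 1.29, against -0.07 over all genes and 0.53 over the 1096 other short genes. The time effect was called smaller in Rescue than in WT for 9 members and larger for 0, where 4.77% of all genes had a smaller one. That difference had a median of -1.14 over the members, with 1 member above 0, and of -0.61 over the 1096 other short genes. With the term, the counts were 8 and 72, with medians of 0.53 and -1.22, against 13.5% and 13.9% of all genes. Both differences share the WT libraries and are drawn from the time effects with which the set was chosen. Single libraries moved both counts. For PKP4-KO the 8 became 21 without PKP4-KO 24 h replicate 3, 4 without PKP4-KO 24 h or 72 h replicate 2, 24, 5 and 4 without WT 72 h replicate 3, 1 and 2, and 21 and 3 without WT 24 h replicate 1 and 2. For Rescue the 9 became 3 and 1 without Rescue 72 h replicate 1 and 2, 1 without Rescue 24 h replicate 1, 4 and 2 without WT 72 h replicate 1 and 3, and 1 and 24 without WT 24 h replicate 1 and 2. For Rplp0 the difference between Rescue and WT was -0.68 ± 0.21, for Rpl5 -0.78 ± 0.23 and for Rps2 -0.95 ± 0.27. The other 6 differences, of the time effect in LCM and of the calcium effect at 24 h and 72 h, had 0 members called by edgeR in either direction, with between 0 and 7 at an unadjusted p under 0.05 except for the calcium effect in Rescue against WT at 72 h, where it was 54 and DESeq2 called 11 lower. DESeq2 called 0 in the other 5, where between 0.0662% and 5.74% of all genes were called, and for the calcium effect in Rescue against WT at 72 h it was 14.6% of all genes. The edgeR count of 0 for the latter was 43 without Rescue 72 h LCM replicate 1 and 5 without WT 72 h HCM replicate 2. Without the 7 libraries, the calcium effect at 72 h was larger in PKP4-KO than in WT for 47 members, against 12.5% of all genes, and the time effect in HCM for 61, against 19.8%, where the 3 PKP4-KO 72 h HCM libraries that stood apart were set against libraries that did not.

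**Figure D5:**
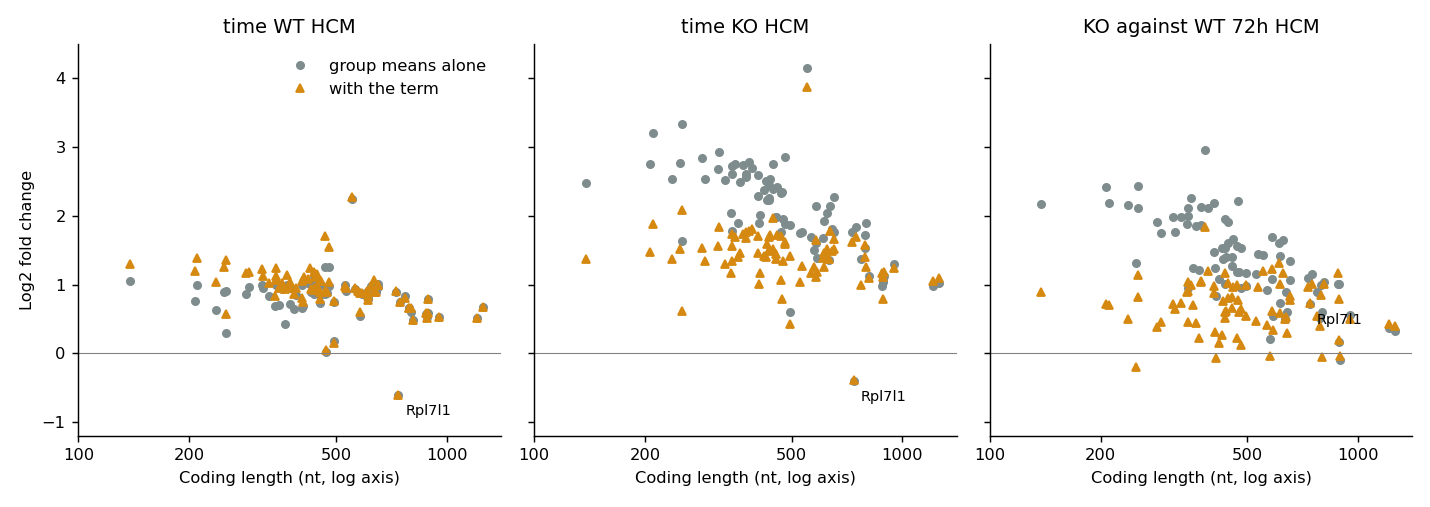
Log2 fold changes of the 80 tested members against their coding length on a log axis, for the time comparisons in HCM of WT and PKP4-KO and for PKP4-KO over WT at 72 h HCM. Grey circles come from the group means alone and orange triangles from the fit with a term for the libraries that stand apart; in PKP4-KO the short members lie highest in grey and less so in orange.

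From the group means alone, the size of a fold change followed the length of the member in many comparisons. When the 80 members were ordered by coding length and divided into 4 sets of 20, the median log2 fold change with time in PKP4-KO HCM was 2.65 for the shortest (138 to 369 nt), then 2.40 and 1.82, and 1.37 for the longest (633 to 1257 nt). With the term the same medians were 1.50, 1.56, 1.30 and 1.25. In WT HCM they were 0.92, 0.91, 0.88 and 0.67 from the group means alone, and 1.13, 0.97, 0.91 and 0.66 with the term. From the group means alone, other comparisons without PKP4-KO 72 h HCM had a gradient too. With calcium in WT the medians were 1.06, 0.67, 0.38 and 0.25 at 24 h and 1.62, 1.06, 0.66 and 0.37 at 72 h. They were -1.56, -0.82, -0.31 and -0.12 with calcium in Rescue at 72 h, and -2.31, -1.65, -1.03 and -0.81 in Rescue over WT at 72 h HCM. Each of these comparisons holds a library that stood apart. With the term, calcium in WT at 24 h gave the reverse order, -0.35, -0.06, 0.08 and 0.15. At 72 h it gave 0.45, 0.41, 0.37 and 0.32 in WT and -0.03, -0.01, 0.01 and -0.02 in Rescue. In Rescue over WT at 72 h HCM the order stayed the same, at a smaller size. The 1096 other short genes had a median of 0.98 with time in PKP4-KO HCM, below the 2.04 of the members, and of 0.42 in WT HCM against 0.88. When the trend of each library on coding length, fitted on genes that are no members, was taken as an offset, the medians of the members were 1.32 and 0.45. By subunit, the medians were 2.03 for the 48 tested large and 2.09 for the 32 small subunit members in PKP4-KO HCM.

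Several members have a related copy, of which a few can replace each other in the ribosome. Rps27l, the partner of Rps27 that p53 can induce, had 1716, 2540.4 and 2037 CPM in PKP4-KO 72 h HCM against 3323, 5142 and 3686 CPM of Rps27. With time in PKP4-KO HCM its log2 fold change was 0.61 ± 0.26 with the term, against 2.09 ± 0.42 for Rps27. Rpl22l1 had 1886, 3316 and 2641 CPM in the same libraries and Rpl22 6285, 8017 and 6675 CPM. Against WT at 72 h HCM, Rpl22l1 had 0.44 ± 0.29 and Rpl22 1.84 ± 0.30 with the term (edgeR, adjusted p = 0.22 and 4.2e-06); whether the pair differed was not tested. Rpl3 lay at 1444 to 3642 CPM and Rpl10 at 1256 to 6915 CPM, with their partners Rpl3l and Rpl10l at or next to 0 reads, and Rps4x lay at 2312 to 9275 CPM while Rps4l, which the table lists as a pseudogene, reached at most 309.7 CPM.

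Further genes of the ribosome and of translation were read from lists, from the group means alone, in which PKP4-KO 72 h HCM holds only libraries that stood apart. With time in PKP4-KO HCM 24.3% of all genes were called higher and 31.4% lower, and between PKP4-KO and WT at 72 h HCM 21.9% and 29.9%. Among ribosomal proteins that the name rule missed, the log2 fold changes with time in PKP4-KO HCM were 2.00 ± 0.40 for Fau, 0.36 ± 0.42 for Rpl36al, 1.23 ± 0.21 for Rack1, the scaffold protein of the small subunit, and 3.49 ± 0.97 for Rps27rt. Of 21 translation factors and other genes with TOP mRNAs, 11 were called higher and 4 lower in that comparison, with a median of 0.57, and 13 and 5 between PKP4-KO and WT at 72 h HCM, with 0.47. In the latter, Tpt1 had 1.69 ± 0.20 and the elongation factor Eef1a1 0.44 ± 0.12, while the poly(A)-binding protein Pabpc1, whose mRNA also carries a TOP motif, had -0.89 ± 0.29 (edgeR, adjusted p = 8.3e-08, 0.0037 and 0.013).

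Among genes that build ribosomes more were called lower than higher with time. The median log2 level of long genes that are no members was low in PKP4-KO 72 h HCM. It was -0.31 to -0.25 for coding lengths over 1000 and up to 2000 nt and -1.06 to -0.80 above 4000 nt. The part of length in the counts of these lists was not tested. Of 50 ribosome biogenesis factors such as Fbl, Ncl and Nop56, 3 were called higher and 36 lower with time in PKP4-KO HCM, with a median of -0.69, and 0 and 17 in WT HCM, with -0.37, where 31.4% and 8.69% of all genes were called lower. Of 14 genes of RNA polymerase I and its factors, 2 were called higher and 10 lower with time in PKP4-KO HCM, with a median of -0.74. Of 19 regulators of ribosomal protein mRNAs, among them Myc, Mtor and Larp1, it was 4 higher and 10 lower, with -0.61, and Myc had -1.29 ± 0.14. Of 77 tested mitochondrial ribosomal protein genes, 33 were called higher and 3 lower, with 0.42, and of 155 tested pseudogene rows of the members 93 and 0, with 2.28. Between PKP4-KO and WT at 72 h HCM, the counts higher and lower were 17 and 11 for biogenesis factors, 4 and 2 for RNA polymerase I, 3 and 12 for the regulators and 49 and 0 for mitochondrial ribosomal proteins, where 21.9% of all genes were called higher and 29.9% lower. The median level of the mitochondrial ribosomal protein genes moved with the kind of library: its log2 difference from the gene means had a median of 0.50 (range 0.03 to 0.82) over the 10 libraries that stood apart and of -0.16 (range -0.81 to 0.49) over the other 26, and its part in these counts was not tested. In Rescue against WT at 72 h HCM, 52 of the mitochondrial ribosomal protein genes were called lower and 5 higher, with a median of -0.80, where 16.7% of all genes were called lower.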

How the data were processed

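RNA of 36 keratinocyte libraries was sequenced as poly(A)-selected, strand-specific read pairs. The authors aligned reads with HISAT2 2.1.0 to mm39 with a GFP-PKP4 sequence added, removed secondary alignments with SAMtools 1.10 and deposited raw counts per gene made with featureCounts 2.0.0 on Ensembl annotation. Strand and multi-mapping settings of the counting are not given in the sources used here. Counts were used as deposited. Genes with low counts were removed with filterByExpr, leaving 15114 of 55358, and TMM factors, group means of 12 groups and 28 contrasts were fitted with the quasi-likelihood test of edgeR 4.0.16 in R 4.3.3 (24 residual degrees of freedom), with Benjamini-Hochberg adjustment over all genes tested and a threshold of 0.05. DESeq2 1.42.0 and other filters, scalings and designs were alternatives. Counts were also simulated for every library from the WT 24 h LCM means, with the same dispersion for every gene and no libraries that stand apart. With changes set for calcium in WT 24 h, 186 of 196 changed genes were called among 194 called of 14129 tested. Since real libraries differed from this setting, these counts do not give the recovery in the data. Libraries of 1 group differed by more than sampling noise in all 36 pairs (chi-square per gene 7.03 to 266). Named members are the extremes of each comparison, of level and of departure from the family, those of known roles, paralog pairs and members that were not tested. Some genes that this rule names are not reported here. The members and lists were chosen with earlier results of these data known. Lengths are coding lengths of canonical transcripts; sequences come from RefSeq.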

Additional observations from a re-analysis of the deposited data

Results flagged for a closer look

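The difference of the time effects in HCM between genotypes (edgeR) is given as a description, since the set was chosen with time effects known. The effect was called larger in PKP4-KO than in WT for 8 of 80 members, where 10.8% of all genes had a larger one. The share of members called was thus no higher, while the difference lay above 0 for all 80, with a median of 1.29. Over all genes that median was -0.07, and over the 1096 other short genes 0.53. With the length trend of each library as an offset, the members had 0.85. The effect was called smaller in Rescue than in WT for 9 members, where 4.77% of all genes had a smaller one. With a term for the libraries that stood apart the counts were 8, against 13.5% of all genes, and 72, against 13.9%. Both counts moved by over 1.5 times when single libraries were left out, and the 3 PKP4-KO 72 h HCM libraries all stood apart. With the other libraries that stood apart left out, the difference between PKP4-KO and WT had a median of 1.56, with 79 members above 0. In that fit PKP4-KO 72 h HCM libraries that stood apart were set against libraries that did not. The part of the kind of library was not tested beyond these fits. Groups held 3 libraries, too few to look for an outlying library from the libraries of a group alone. The libraries that stood apart were found by a gap in Sec61g over all libraries.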

How the results depend on the processing

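Among the 28 comparisons, the median log2 fold change of the members moved by less than the spread between libraries in 28 with DESeq2 size factors and in 28 with TMM factors computed without the members. Counts of members called moved by over 1.5 times in at least 1 comparison under each setting named below, in 1 with TMM factors computed without the members and in 16 with the libraries that stood apart left out. The length trend and both treatments of the libraries that stood apart were chosen after seeing the data, and the cause of these changes was not tested.

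Library sizes without TMM factors gave, as members called, 0 for calcium in Rescue 72 h, 1 for calcium in WT 72 h, 2 for time in WT LCM and the time effect of PKP4-KO minus that of WT in HCM, 4 for calcium in PKP4-KO 72 h and the time effect of Rescue minus that of WT in HCM, 5 for Rescue over WT 24 h LCM and Rescue over WT 24 h HCM, 14 for PKP4-KO over WT 72 h LCM, 22 for PKP4-KO over WT 72 h HCM, 29 for Rescue over WT 72 h HCM, 47 for time in PKP4-KO HCM. As medians of the log2 fold change the same setting gave -0.84 for Rescue over WT 72 h HCM, 0.49 for the time effect of PKP4-KO minus that of WT in HCM, 0.53 for calcium in PKP4-KO 72 h, 0.59 for PKP4-KO over WT 72 h LCM, 0.68 for PKP4-KO over WT 72 h HCM, 1.02 for time in PKP4-KO HCM. TMM factors computed without the members gave, as members called, 1 for Rescue over WT 24 h LCM. No filter on low counts gave, as members called, 0 for calcium in WT 72 h, 1 for Rescue over WT 24 h LCM, 3 for PKP4-KO over WT 24 h HCM, 4 for the time effect of Rescue minus that of WT in HCM, 5 for time in WT LCM and the time effect of PKP4-KO minus that of WT in HCM, 11 for the calcium effect of Rescue minus that of WT at 72 h. A minimum of 10 counts in every library gave, as members called, 0 for Rescue over WT 24 h LCM, 1 for calcium in WT 24 h and calcium in Rescue 24 h. The replicate block gave, as members called, 0 for Rescue over WT 24 h LCM, 1 for calcium in WT 72 h. The length trend as an offset gave, as members called, 1 for calcium in WT 72 h and calcium in Rescue 24 h, 15 for Rescue over WT 72 h LCM, 18 for calcium in PKP4-KO 72 h. As medians of the log2 fold change the same setting gave 0.30 for calcium in WT 72 h, 0.60 for PKP4-KO over WT 72 h LCM, 0.73 for calcium in PKP4-KO 72 h, 1.32 for time in PKP4-KO HCM. A fit of only the groups of a comparison gave, as members called, 0 for calcium in Rescue 72 h and Rescue over WT 24 h HCM, 1 for time in WT HCM, time in PKP4-KO LCM and PKP4-KO over WT 24 h HCM, 2 for Rescue over WT 72 h LCM and the time effect of PKP4-KO minus that of WT in HCM, 14 for time in WT LCM, 18 for time in Rescue HCM, 50 for PKP4-KO over WT 72 h LCM, 59 for calcium in PKP4-KO 72 h. DESeq2 gave, as members called, 1 for calcium in Rescue 24 h, 2 for calcium in WT 24 h, 11 for the calcium effect of Rescue minus that of WT at 72 h, 15 for the time effect of Rescue minus that of WT in HCM, 17 for the time effect of PKP4-KO minus that of WT in HCM. Leaving out the 7 libraries that stood apart outside PKP4-KO 72 h HCM gave, as members called, 1 for calcium in Rescue 24 h and the time effect of Rescue minus that of WT in LCM, 2 for calcium in Rescue 72 h and the time effect of PKP4-KO minus that of WT in LCM, 5 for Rescue over WT 24 h LCM, 6 for time in Rescue HCM, 7 for Rescue over WT 24 h HCM, 31 for time in WT LCM, 45 for PKP4-KO over WT 72 h LCM, 47 for the calcium effect of PKP4-KO minus that of WT at 72 h, 48 for Rescue over WT 72 h LCM, 61 for the time effect of PKP4-KO minus that of WT in HCM, 66 for calcium in PKP4-KO 72 h, 72 for time in PKP4-KO LCM and the time effect of Rescue minus that of WT in HCM, 73 for time in WT HCM. As medians of the log2 fold change the same setting gave -0.70 for Rescue over WT 72 h LCM, -0.24 for the calcium effect of Rescue minus that of WT at 72 h, 0.010 for Rescue over WT 24 h LCM, 0.073 for PKP4-KO over WT 24 h LCM, 0.12 for the calcium effect of PKP4-KO minus that of WT at 24 h, 0.31 for the calcium effect of Rescue minus that of WT at 24 h, 0.43 for Rescue over WT 24 h HCM, 1.01 for the calcium effect of PKP4-KO minus that of WT at 72 h. The term for the 10 libraries that stood apart gave, as members called, 1 for calcium in WT 24 h, calcium in PKP4-KO 24 h and the time effect of PKP4-KO minus that of WT in LCM, 6 for calcium in WT 72 h and calcium in Rescue 24 h, 7 for time in Rescue HCM, 9 for Rescue over WT 24 h LCM, 11 for Rescue over WT 24 h HCM, 15 for PKP4-KO over WT 24 h HCM, 29 for time in WT LCM, 36 for Rescue over WT 72 h LCM, 40 for PKP4-KO over WT 72 h LCM, 72 for the time effect of Rescue minus that of WT in HCM, 75 for time in PKP4-KO LCM, 76 for time in WT HCM. As medians of the log2 fold change the same setting gave -0.40 for the calcium effect of Rescue minus that of WT at 72 h, -0.032 for Rescue over WT 24 h LCM, 0.16 for PKP4-KO over WT 24 h LCM, 0.28 for the calcium effect of Rescue minus that of WT at 24 h, 0.38 for Rescue over WT 24 h HCM, 0.53 for the time effect of PKP4-KO minus that of WT in HCM, 0.55 for PKP4-KO over WT 72 h LCM, 0.55 for calcium in PKP4-KO 72 h, 0.71 for PKP4-KO over WT 72 h HCM, 1.45 for time in PKP4-KO HCM.

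With 1 library left out at a time, the number of members called ran from 0 to 0 for calcium in PKP4-KO 24 h, time in Rescue LCM, the calcium effect of PKP4-KO minus that of WT at 24 h, the calcium effect of PKP4-KO minus that of WT at 72 h, the calcium effect of Rescue minus that of WT at 24 h, the time effect of PKP4-KO minus that of WT in LCM and the time effect of Rescue minus that of WT in LCM, 0 to 1 for calcium in WT 24 h, calcium in Rescue 24 h, Rescue over WT 24 h LCM and Rescue over WT 24 h HCM, 0 to 2 for calcium in WT 72 h, 0 to 11 for time in WT LCM, 0 to 43 for the calcium effect of Rescue minus that of WT at 72 h, 1 to 1 for calcium in Rescue 72 h and time in Rescue HCM, 1 to 24 for the time effect of Rescue minus that of WT in HCM, 3 to 8 for PKP4-KO over WT 24 h HCM, 3 to 10 for Rescue over WT 72 h LCM, 3 to 24 for the time effect of PKP4-KO minus that of WT in HCM, 5 to 42 for time in WT HCM, 7 to 14 for PKP4-KO over WT 24 h LCM, 7 to 53 for calcium in PKP4-KO 72 h, 10 to 28 for PKP4-KO over WT 72 h LCM, 10 to 39 for time in PKP4-KO LCM, 16 to 61 for Rescue over WT 72 h HCM, 27 to 67 for PKP4-KO over WT 72 h HCM, 59 to 80 for time in PKP4-KO HCM. Without TMM factors the median over all genes was itself at -1.16 for time in PKP4-KO HCM, -0.83 for PKP4-KO over WT 72 h HCM, -0.77 for calcium in PKP4-KO 72 h and 0.46 for Rescue over WT 72 h HCM, and medians of members under that setting are to be read against these.

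Libraries of 2 groups with the same replicate number deviated together, with a correlation over 0.1, in 14 of 60 pairs (range -0.59 to 0.50), and in all 3 pairs of calcium in WT 24 h only, where the replicate block called 0 members as the fit without it did. Elsewhere the libraries share only a number.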
